A study of Mus musculus with 6 samples.

Results

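Igf2, H19, Dlk1, Meg3, Rian, Plagl1, Peg3, Mest, Ndn and Cdkn1c are imprinted genes, and their transcripts were followed here across the cell classes of injured mouse muscle. All 10 were found by symbol among the 32286 features of the count tables. They were chosen by their measured UMIs, which were lower after clodronate liposomes in fibroblasts and myogenic cells, so their values in those cells are given as a description, with an error and without a test. The cells came from quadriceps of Cdh5-CreERT2:R26R-tdTomato mice, in which the endothelial Cdh5 promoter drives an inducible Cre recombinase that switches on a red fluorescent reporter at the Rosa26 locus. Every mouse received cardiotoxin, a snake venom toxin that destroys muscle fibres, in the quadriceps, and muscle was dissociated on day 5. Clodronate liposomes (CLL), which kill phagocytes and partly deplete circulating monocytes, went into a vein on the day before the toxin and again 2 days after it, and SHAM mice received liposomes loaded with PBS on the same days. Each group had 3 independent mice and each mouse gave 1 droplet single-cell library that counts unique molecular identifiers (UMIs) at the 3′ ends of transcripts. No library came from uninjured muscle, and the labels used here give neither age nor tamoxifen dosing.

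Imprinted genes are transcribed mainly from the allele of one parent, set by DNA methylation laid down in the germ line. Many act on fetal growth and are switched down after birth, and several are transcribed again in regenerating muscle. Igf2 is a secreted growth factor of the insulin family transcribed from the paternal allele, and H19 is a maternally expressed long noncoding RNA beside it. Dlk1 is a transmembrane protein with EGF-like repeats related to Notch ligands, and it lies on the paternal side of a domain whose maternal allele gives the long noncoding RNAs Meg3 and Rian. Plagl1 and Peg3 are zinc-finger proteins, Mest is a membrane protein of the hydrolase fold family, Ndn (necdin) is a MAGE family protein, and Cdkn1c (p57Kip2) inhibits cyclin-dependent kinases.

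On GRCm38, Igf2 lies at chr7:142650766-142666816 and H19 at chr7:142575529-142578143, both on the minus strand and 72.6 kb apart. Cdkn1c is on the same strand at chr7:143458339-143461050, Peg3 at chr7:6703892-6730431 (minus strand) and Ndn at chr7:62346569-62350262 (plus strand). Dlk1 occupies chr12:109452823-109463336, Meg3 chr12:109541001-109571726 and Rian chr12:109603940-109661716, all on the plus strand, with 77.7 kb between the first pair and 32.2 kb between the second. Plagl1 is at chr10:13060504-13131694 and Mest at chr6:30723547-30748465, both on the plus strand. These intervals are whole genes, with their exons, introns and untranslated regions.

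Of the 10 genes, 5 carry microRNAs within their bounds on the same strand: 15 mature sequences in all, of which Rian holds 6. The sequences below are a choice of those hosted by genes whose levels are described next, from RefSeq on GRCm38.p6. Capitals mark the seed, bases 2 to 8, which pairs with targets, and the 15 mature sequences had 15 different seeds. Libraries of 3′ ends of polyadenylated RNA do not measure mature microRNAs, so the values that follow are of the host transcripts.
miR-483-5p (Igf2): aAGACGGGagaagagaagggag
miR-483-3p (Igf2): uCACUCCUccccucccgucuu
miR-675-5p (H19): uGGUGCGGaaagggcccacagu
miR-675-3p (H19): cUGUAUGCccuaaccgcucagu
miR-770-5p (Meg3): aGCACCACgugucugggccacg
miR-370-3p (Rian): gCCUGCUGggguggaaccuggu
miR-341-3p (Rian): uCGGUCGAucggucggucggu
miR-335-5p (Mest): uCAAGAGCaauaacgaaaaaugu
miR-335-3p (Mest): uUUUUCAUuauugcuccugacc

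RefSeq start-site windows were matched for 8 of the 10 genes, 14 windows in all with alternative starts, while H19 and Cdkn1c had none. The median GC content of these windows was 57.5% with 12 CG pairs, against 52.7% and 7 over 32851 windows of the same 300 bases. Searched on both strands, GGGGCCCC was found in 1.08% of all windows, the E-box CAGCTG in 16.3% and TATAAA in 13.6%. The 250 bases upstream of Peg3, Dlk1 and Meg3 are printed because the first shares its start region with another imprinted gene that is described below, and because Dlk1 and Meg3, the others, are neighbours that differed in the size of their change. In the Peg3 sequence (chr7:6730420-6730669, minus strand) capitals mark GGGGCCCC at 201 to 194 bases before the start. The window of the oppositely directed Usp29 (chr7:6730333-6730632, plus strand) overlaps it and holds that same stretch. In the Meg3 sequence (chr12:109540746-109540995, plus strand) capitals mark overlapping TATAAA matches on opposite strands, 29 to 20 bases before the start. The Dlk1 sequence (chr12:109452573-109452822, plus strand) held none of the 3 motifs. A match describes letters only.
Peg3: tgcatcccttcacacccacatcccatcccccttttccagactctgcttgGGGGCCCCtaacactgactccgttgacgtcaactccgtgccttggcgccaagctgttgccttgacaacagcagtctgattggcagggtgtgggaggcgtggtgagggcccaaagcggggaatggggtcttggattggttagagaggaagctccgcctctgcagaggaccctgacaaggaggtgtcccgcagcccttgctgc
Meg3: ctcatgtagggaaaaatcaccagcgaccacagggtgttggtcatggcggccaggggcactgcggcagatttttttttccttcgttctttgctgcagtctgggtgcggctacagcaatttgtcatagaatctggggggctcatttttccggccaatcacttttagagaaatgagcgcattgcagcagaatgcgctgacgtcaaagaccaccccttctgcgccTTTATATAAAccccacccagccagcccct
Dlk1: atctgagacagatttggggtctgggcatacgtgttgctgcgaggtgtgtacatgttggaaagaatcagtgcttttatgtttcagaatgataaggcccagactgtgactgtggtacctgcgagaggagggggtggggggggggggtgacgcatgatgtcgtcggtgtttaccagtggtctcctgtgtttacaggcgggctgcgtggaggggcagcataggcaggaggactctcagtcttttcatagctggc

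The 6 libraries held 60282 barcodes of at least 500 UMIs, of which 46685 were kept, and between 23873416 and 94841003 UMIs each. Clustering without the imprinted genes gave 29 clusters, 21 of which were named from markers in 11 classes. SHAM replicate 3 stood apart, with a median of 879 UMIs per kept cell and 80.4% of its cells in unnamed clusters, against 11.6% to 18.9% in the others. CLL replicate 2 was also shallow, at a median of 1624 UMIs, and 362 barcodes occurred in more than 1 library. The classes that matter most here were fibroblast/tenocyte-like cells (314 to 5766 per library) and myogenic-like cells (134 to 2288 per library). The first merges clusters named from fibroblast and from tenocyte markers, and the word fibroblasts below stands for all of it. The 14 fibroblast markers summed to 50385 to 61220 CPM (UMI counts scaled to a common library total) in the first class, and class sums ran from 7303443 to 37703308 UMIs there and from 2465767 to 10559129 in myogenic cells. Below, a level is the CPM of UMIs summed over the cells of a class in 1 library, scaled by edgeR's trimmed mean of M-values, and a difference is log2 of CLL over SHAM with its standard error over 3 libraries per group.

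In fibroblast/tenocyte-like cells 9 of the 10 genes were lower in every CLL library than in every SHAM library, and Ndn alone overlapped. The rule that chose them used this contrast, so nothing is read from that count, and 21.9% of the 14324 genes tested were lower in CLL without overlap. Dlk1 and Igf2 differed by more than 10-fold, Cdkn1c, Plagl1 and Peg3 by log2 differences between -1.91 and -1.52, and the noncoding RNAs and Mest by less than 1 log2 unit. The median difference was -1.18 over the 10 genes and -0.03 over all genes tested.

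Igf2, the growth factor, stood at 52.0, 25.8 and 32.7 CPM in CLL replicates 1, 2 and 3 and at 309, 388 and 489 CPM in SHAM replicates 1, 2 and 3. The lowest SHAM library was thus far above the highest CLL library, and the means of 36.8 ± 13.6 and 395 ± 90.4 CPM (SD, n = 3) differed 10.7-fold in the fit, a log2 difference of -3.42 ± 0.31 (SE). H19, its neighbour, read 1334, 1134 and 1051 CPM in CLL and 1461, 1727 and 1783 CPM in SHAM. Those groups did not overlap either, but the log2 difference was only -0.50 ± 0.14. As a ratio within a library, 100 UMIs of H19 came with 3.90, 2.27 and 3.11 UMIs of Igf2 in CLL and with 21.2, 22.5 and 27.4 in SHAM, so the neighbours did not change in proportion.

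Dlk1, the Notch-ligand-like membrane protein, gave 31.9, 24.0 and 24.8 CPM in CLL and 195, 330.0 and 486 CPM in SHAM. The CLL libraries lay close together, the SHAM libraries were spread widely above them, and the log2 difference was -3.65 ± 0.38, or 12.5-fold. Meg3, the maternally expressed RNA of that domain, was at 1541, 1239.9 and 1387 CPM in CLL and at 2698, 2418 and 2284 CPM in SHAM, a log2 difference of -0.83 ± 0.13. Rian, further downstream, read 351, 327 and 289 CPM in CLL and 641, 427 and 431 CPM in SHAM, where replicate 1 was the highest. Its log2 difference was -0.63 ± 0.16, and -0.40 without SHAM replicate 1. Within libraries Rian kept between 20.9 and 26.4 UMIs per 100 of Meg3 in CLL and between 17.6 and 23.7 in SHAM, ranges that overlapped. Dlk1 per 100 UMIs of Meg3 went from 1.79 to 2.07 in CLL and from 7.24 to 21.3 in SHAM, with no overlap.

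Plagl1, a zinc-finger transcription factor, was measured at 168, 109.8 and 128 CPM in CLL and at 429.8, 402 and 438 CPM in SHAM (log2 difference -1.65 ± 0.15). Peg3, another zinc-finger protein, had narrow groups, with 135, 133 and 126 CPM in CLL and 352, 397 and 388 CPM in SHAM. Its log2 difference was -1.52 ± 0.11. Cdkn1c, the cell-cycle inhibitor, read 379.6, 332 and 325 CPM in CLL against 967, 1526 and 1400.4 CPM in SHAM, a difference of -1.91 ± 0.17 and the largest after Dlk1 and Igf2. Mest had 897, 665 and 992 CPM in CLL and 1214, 1106 and 1331 CPM in SHAM. The gap between the groups was small beside their spread, at -0.52 ± 0.15, and it narrowed to -0.28 when CLL replicate 2 and SHAM replicate 3 were both left out. Ndn was at 100.2, 93.1 and 104 CPM in CLL and at 99.7, 122 and 127 CPM in SHAM, and this gene overlapped between the groups (-0.23 ± 0.12).

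**Figure D1:**
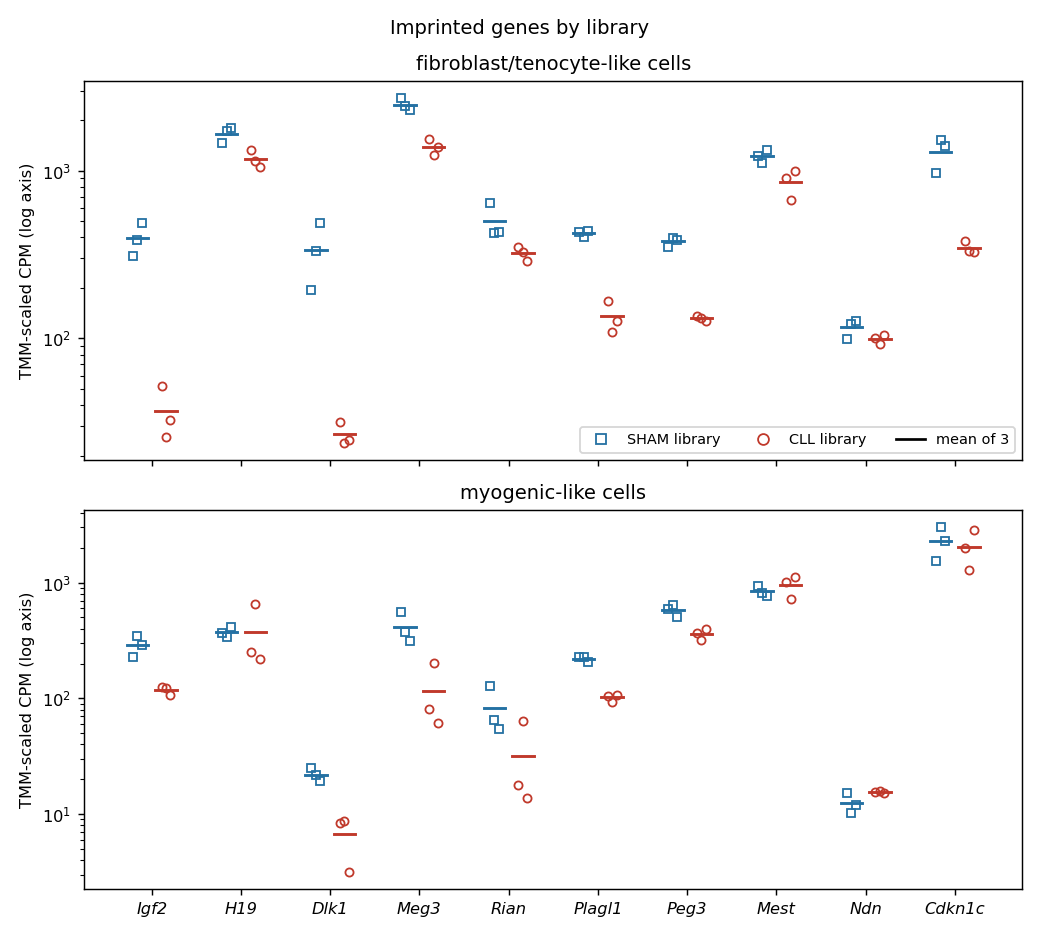
CPM of the 10 imprinted genes on a log scale in fibroblast/tenocyte-like cells and in myogenic-like cells, with 1 point per library (CLL circles, SHAM squares) and bars at the mean of 3. In fibroblast/tenocyte-like cells Igf2 and Dlk1 show the widest gaps, with CLL libraries between 24.0 and 52.0 CPM and SHAM libraries between 195 and 489 CPM.

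The makeup of the class differed between the groups. Cluster 1 held 60.5 ± 26.9% of the CLL fibroblast/tenocyte-like cells and 15.8 ± 5.87% of the SHAM cells (SD, n = 3), whereas cluster 4 held 8.12 ± 4.52% and 67.5 ± 10.1%. A further cluster, 15, took 62.8% of the class in CLL replicate 2. Clusters 1, 3 and 15 were named from tenocyte markers and clusters 4 and 21 from fibroblast markers. The class difference thus compares groups with unlike shares of these named clusters. Within cluster 4, 9 of the 10 genes were again lower in CLL without overlap, where 11.8% of all genes were. Igf2 there was at 156, 49.5 and 87.2 CPM in CLL and at 461, 547 and 731 CPM in SHAM (-2.54 ± 0.46), and Dlk1 at 32.7, 11.4 and 18.1 CPM against 268, 455 and 796 CPM (-4.52 ± 0.65). Plagl1, Peg3 and Cdkn1c differed by -1.42 ± 0.24, -1.45 ± 0.15 and -1.29 ± 0.20 in that cluster. Cells of this cluster belong to the class whose contrast chose the genes. Nothing is therefore read from its count or from those of the other clusters.

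Cluster 1 held 76.1, 29.4 and 76.0% of the class in CLL replicates 1, 2 and 3 and showed smaller gaps. Its cells numbered 1191, 1694 and 1893 in CLL but 608, 36 and 56 in SHAM, so SHAM replicates 2 and 3 rest on few cells. There 6 of the 10 genes were lower in CLL without overlap, with 10.5% of all genes doing so. Dlk1 stood at 28.9, 26.7 and 25.5 CPM in CLL and at 85.5, 107 and 137 CPM in SHAM, a difference of -2.02 ± 0.17, smaller than in cluster 4. Igf2 read 43.1, 20.8 and 28.2 CPM in CLL and 53.3, 61.7 and 193.6 CPM in SHAM there, so that SHAM replicate 3 stood far above the others (-1.76 ± 0.66). Its fitted fold was 3.38 in cluster 1, 5.80 in cluster 4 and 5.77 in cluster 3. Each was below the 10.7-fold of the whole class. Dlk1 had a fitted fold of 22.9 in cluster 4 and 4.05 in cluster 1, on either side of its 12.5-fold in the whole class. The part of cluster makeup in the class values was not tested. The cluster 3 value of Igf2 was imprecise (log2 difference -2.53 ± 1.40) and its groups overlapped. It rests on 2, 14 and 16 UMIs of Igf2 in CLL and 23, 26 and 170 in SHAM. H19 and Ndn gave 0.03 ± 0.17 and 0.03 ± 0.15 in cluster 1, with no direction. In cluster 3, with 1.47 ± 0.544% of the class in CLL and 7.52 ± 3.31% in SHAM, Dlk1 did not reach the minimum count for testing, with 2.13, 1.43 and 1.63 CPM in CLL and 16.2, 14.5 and 12.6 CPM in SHAM. Of the 9 others, 4 were lower in CLL without overlap there (background 11.6%). The clusters were made without the imprinted genes, but the difference between clusters 1 and 4 was not tested.

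**Figure D2:**
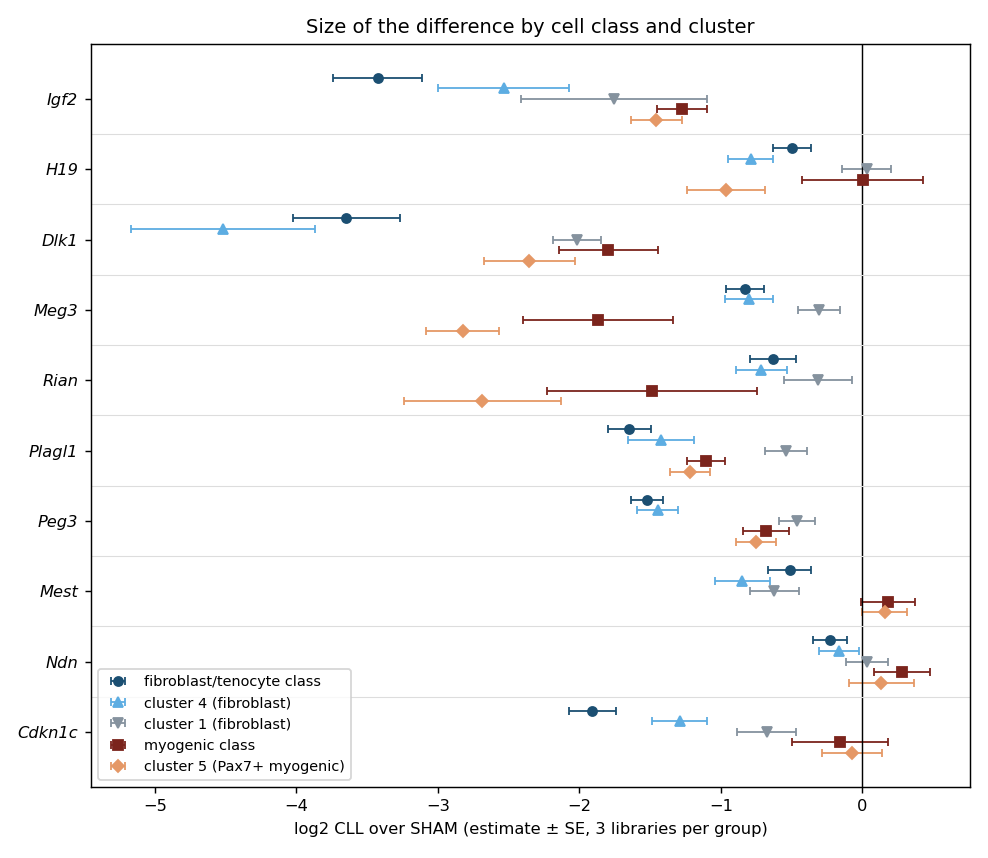
Log2 difference of CLL over SHAM (estimate ± SE, 3 libraries per group) for each imprinted gene in fibroblast/tenocyte-like cells, myogenic-like cells and the clusters read separately. Cluster 1, labelled fibroblast in the figure, was named from tenocyte markers. Dlk1 in cluster 4 reaches -4.52, Igf2 in the fibroblast/tenocyte class -3.42, and H19, Mest, Ndn and Cdkn1c sit near 0 in the myogenic class.

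In myogenic-like cells, the activated muscle stem cells, myoblasts and myocytes of the tissue, 5 of the 10 genes were lower in CLL without overlap (Igf2, Dlk1, Meg3, Plagl1 and Peg3). Over all 11839 genes tested, 14.6% were lower without overlap, and since the choice of genes used this contrast nothing is read from the count. Igf2 was at 126, 122 and 107 CPM in CLL and at 228, 347 and 287 CPM in SHAM, a log2 difference of -1.27 ± 0.18. The gap was present in all 3 CLL mice but smaller than in fibroblasts (the difference between the classes was not tested). Plagl1 read 105, 92.2 and 108 CPM in CLL and 226, 226 and 206 CPM in SHAM (-1.11 ± 0.14), and Peg3 368, 320.5 and 394 CPM against 591, 644 and 504 CPM (-0.68 ± 0.16). Both zinc-finger genes had tight groups on either side of the gap.

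Meg3 gave 80.9, 204 and 61.0 CPM in CLL and 555, 378 and 313 CPM in SHAM. CLL replicate 2 was the highest of its group, and the difference of -1.87 ± 0.53 became -2.52 without that library. Rian followed the same order, with 18.0, 63.9 and 13.8 CPM in CLL and 128, 64.8 and 54.6 CPM in SHAM. Here CLL replicate 2 exceeded SHAM replicate 3, so the groups overlapped (-1.48 ± 0.74, and -2.36 without CLL replicate 2). Dlk1 was scarce in myogenic cells, with 61, 24 and 33 UMIs in CLL and 288, 51 and 77 in SHAM, or 8.30, 8.71 and 3.17 CPM against 24.9, 21.6 and 19.4 CPM (-1.80 ± 0.35).

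Of the remaining 4 genes, H19 had no direction: 254, 649.6 and 219.7 CPM in CLL against 367, 338 and 413 CPM in SHAM. CLL replicate 2 was the highest of all 6 libraries and without it the difference moved from 0.00 ± 0.43 to -0.62. Mest (1017, 728 and 1108 CPM in CLL, and 934, 819 and 768 CPM in SHAM) and Cdkn1c (1986, 1274 and 2863 CPM, and 1538, 3006 and 2284 CPM) overlapped, at 0.18 ± 0.19 and -0.16 ± 0.34. The latter, an inhibitor that marks muscle cells leaving the cell cycle, changed sign to 0.12 without CLL replicate 2 and to 0.13 without SHAM replicate 2. Ndn was higher in all CLL libraries (15.7, 16.0 and 15.3 CPM against 15.3, 10.2 and 12.1 CPM; 0.28 ± 0.20), by a gap smaller than the rounding of these values, and 14.6% of genes were higher without overlap.

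Cluster 5, which held 56.4 ± 4.98% of the CLL and 67.7 ± 7.28% of the SHAM myogenic cells, gave clearer groups. There 7 of the 10 genes were lower in CLL without overlap, against 17.1% of all genes, and nothing is read from that count either. Meg3 was at 62.3, 113 and 62.7 CPM in CLL and at 699, 438 and 487 CPM in SHAM (-2.83 ± 0.26), and Rian at 13.2, 34.9 and 12.3 CPM against 166, 78.6 and 78.0 CPM (-2.69 ± 0.56). H19, flat over the whole class, read 196, 359 and 178 CPM in CLL and 416, 399 and 598 CPM in SHAM in this cluster, a difference of -0.96 ± 0.28. In cluster 6, a myogenic cluster that was 28.1 ± 11.3% of the class in CLL and 13.2 ± 4.45% in SHAM, unscaled H19 levels were 533.8, 1471 and 333 CPM in CLL and 475, 90.1 and 297.5 CPM in SHAM. CLL replicate 2 was again the highest for H19. Cdkn1c in that cluster was at 5051, 1886 and 6284 CPM in CLL and 4954, 9391 and 7136 CPM in SHAM.

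Transcripts of other cells were present in the myogenic sums. The 14 fibroblast markers summed to 4487, 9010 and 5385 CPM in CLL and 8957, 5120 and 5857 CPM in SHAM, with no marker at 0. In cluster 5 they gave 5213, 8056 and 5767 CPM against 11090, 6474 and 8673 CPM, and 5 of the 13 tested were lower in CLL. Mural markers, those of pericytes and smooth muscle, summed to 3363 to 4572 CPM in the CLL and 1469 to 1889 CPM in the SHAM myogenic sums. The mural list includes Des, which is also on the myogenic marker list, and Notch3, which is among the Notch genes read below. The mural sum is therefore not a measure of RNA from other cells alone. Macrophage markers summed to 1897 to 3312 CPM in CLL and 938 to 7930.5 CPM in SHAM. The part of other cells' RNA in the differences of Meg3, Rian and H19 was not tested.

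The fibroblast sums also held other cells' transcripts, with macrophage markers at 82.2 to 186 CPM in CLL and 179 to 689 CPM in SHAM and mural markers, some of them shared with activated fibroblasts, at 2100 to 2869 CPM and 657 to 1187 CPM. Their part in the fibroblast differences was not tested. Proliferation genes moved as well: 14 of 30 rose in CLL fibroblasts and none fell, among them the replication helicase subunits Mcm3 (log2 difference 0.98, edgeR adjusted p = 0.000355) and Mcm5 (1.14, adjusted p = 0.000583), Rrm2, which makes deoxynucleotides (1.24, adjusted p = 0.00127), and Birc5, a mitotic regulator (1.13, adjusted p = 0.00883). In the same fit 26.3% of all genes passed, 12.6% upward and 13.7% downward.

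The share of cells with at least 1 UMI of a gene was also read. Each cell was thinned to 1000 UMIs to remove the difference in depth, which left out 1699 of the CLL and 177 of the SHAM fibroblasts as too shallow. Igf2 was then seen in 3.98, 3.02 and 2.75% of fibroblast/tenocyte-like cells in CLL and in 18.2 to 21.8% in SHAM, and in 15.3% against 46.3% on average unthinned. Dlk1 was seen in 1.96 ± 0.787% of CLL and 17.0 ± 2.77% of SHAM fibroblasts after thinning (SD, n = 3). Macrophage/monocyte-like cells, set beside them as the comparison class, gave shares of 0.494% and 2.55% for Igf2 and 0.0329% and 1.17% for Dlk1 in CLL and SHAM. Whether those UMIs were free RNA from other cells was not tested. The median depths before thinning were 4800 and 4500 UMIs in fibroblasts and 7382 and 2950 UMIs in macrophages. All 3 CLL shares in fibroblasts were above every CLL macrophage share and below every SHAM fibroblast share.

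Other genes had smaller steps in the share of fibroblasts: Cdkn1c went from 43.0 ± 2.44% in SHAM to 20.6 ± 1.96% in CLL, Plagl1 from 30.8 ± 1.56% to 11.1 ± 2.51% and Peg3 from 27.1 ± 2.21% to 10.4 ± 0.399%. Meg3, an abundant RNA, was seen in 76.5 ± 6.28% of SHAM and still in 61.5 ± 5.79% of CLL fibroblasts, beside 9.16% and 6.99% of macrophages. In myogenic cells Igf2 was seen in 12.2, 14.3 and 9.21% of cells in CLL and in 21.1, 25.4 and 25.2% in SHAM at the same depth, and Peg3 in 23.1 ± 3.44% and 44.3 ± 2.32%. The cells behind these myogenic shares numbered 1498 in CLL and 2479 in SHAM, with 130 and 80 left out.

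**Figure D3:**
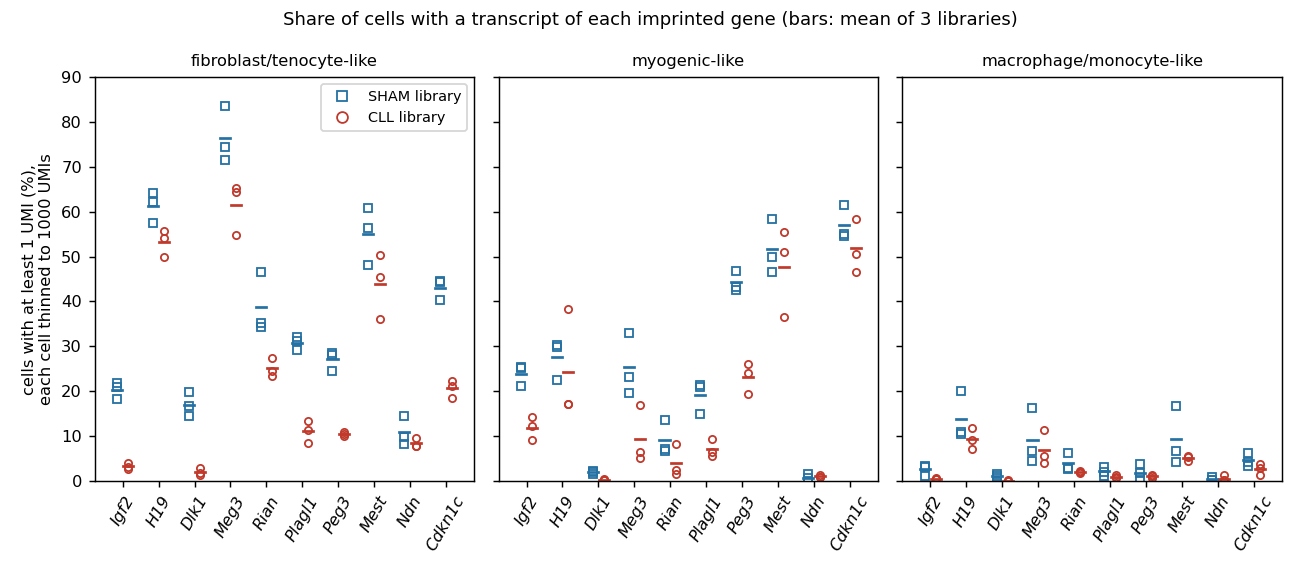
Share of cells with at least 1 UMI of each imprinted gene after thinning to 1000 UMIs, by library, in fibroblast/tenocyte-like, myogenic-like and macrophage/monocyte-like cells. Igf2 in fibroblasts lies at 2.75 to 3.98% in CLL and 18.2 to 21.8% in SHAM, and the macrophage panel shows the comparison class.

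Across classes each gene had its own order of levels, read over the 6 libraries as CPM without correction for transcript length, so that a gene is compared with itself only. Igf2 was highest in myofibre-like barcodes (490.9 ± 54.6 CPM, SD, n = 6), followed by fibroblast/tenocyte-like (222 ± 213) and myogenic-like cells (204 ± 103), whose ranges overlapped. The order of those classes depended on the group: in the same library, myogenic Igf2 was 243 to 467% of the fibroblast level in CLL and 58.9 to 86.1% in SHAM. Mural-like cells came next with 126 ± 38.1 CPM and did not overlap the endothelial-like cells at 66.1 ± 20.9 CPM, while macrophage/monocyte-like cells were lowest with 14.7 ± 11.6 CPM. Igf2 in myofibre-like barcodes did not separate the groups, with 442, 416 and 536 CPM in CLL and 543, 475 and 534 CPM in SHAM. H19 was also highest in myofibre-like barcodes (3648 ± 975 CPM), above every fibroblast library (1422 ± 344 CPM).

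Meg3, Rian and Dlk1 peaked in fibroblasts instead. Meg3 stood at 1950.1 ± 705 CPM there, without overlap with the mural-like cells at 842 ± 252 CPM, and Rian at 416 ± 149.7 CPM. Dlk1 was at 187 ± 200.05 CPM in fibroblasts and 141 ± 97.4 CPM in mural-like cells, and these overlapped. Ndn was highest in fibroblasts (108 ± 16.2 CPM) and did not overlap the mural-like cells (48.6 ± 6.61 CPM). Peg3 and Cdkn1c were highest in myogenic cells, at 473 ± 148 and 2146 ± 662 CPM, and Mest averaged 1042 ± 282 CPM in fibroblasts and 895 ± 159 CPM in myogenic cells. Myogenic Mest was 108 to 113% of the fibroblast level in the CLL libraries and 57.8 to 79.2% in the SHAM libraries. One unnamed cluster, 14, led by nuclear RNAs, had Meg3 levels of 5784, 3513 and 5453 CPM in CLL and 5971, 9148 and 9909 CPM in SHAM, above the fibroblast class in every library.

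**Figure D4:**
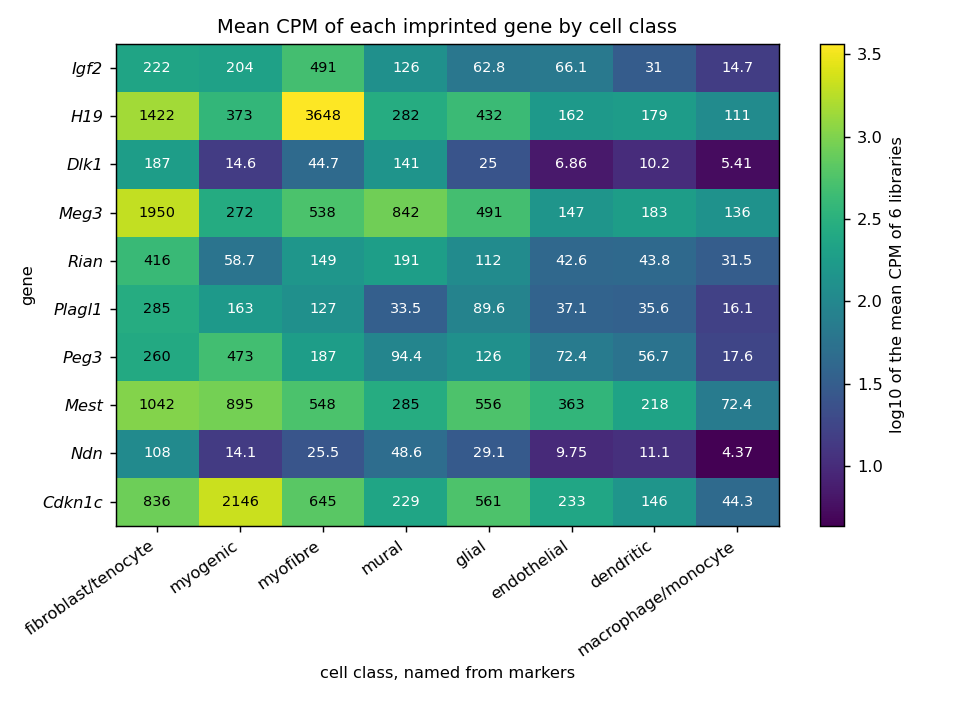
Mean CPM of each imprinted gene over 6 libraries in 8 cell classes, with the colour on a log10 scale and the mean printed in each cell of the map. Igf2 and H19 peak in the myofibre column (490.9 and 3648 CPM), Meg3 in the fibroblast/tenocyte column and Cdkn1c in the myogenic column.

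The genes most like Igf2 over 30 class-by-library sums of 5 classes, by Pearson's r of log2(CPM + 1) among 5646 genes, were Gpatch8 (0.91), Nfia (0.89), Zbtb20 (0.87), Lama2 (0.86) and Chodl (0.86). Its closest partners among the imprinted genes were Peg3 (0.87), Cdkn1c (0.86) and Mest (0.81), while H19 reached 0.66. Meg3 was most like the fibroblast genes Col3a1, Cpxm1, Fap, Col14a1 and Mmp2 (all 0.93), and Rian and H19 followed it at 0.98 and 0.91. The points share libraries, depth and treatment, so these are descriptions of pattern only.

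Macrophage, endothelial and dendritic cells were not named in the rule and were tested for CLL against SHAM in the same mice. Fibroblast RNA in their sums would carry the contrast the genes were chosen on. The tests are therefore not independent of that choice. In macrophage/monocyte-like cells 3 of the 10 genes fell (edgeR, Benjamini-Hochberg adjusted over all genes), where 4.14% of the 11318 genes tested passed and 2.59% fell. Igf2 read 4.88, 5.67 and 5.96 CPM in CLL and 30.4, 16.8 and 23.6 CPM in SHAM, a log2 difference of -2.12 ± 0.23 (adjusted p = 0.00096). Dlk1 had 4, 1 and 6 UMIs in CLL and 268, 47 and 71 in SHAM (15.99-fold lower in the fit, adjusted p = 0.000425). Plagl1 was at 9.27, 9.55 and 7.38 CPM in CLL and at 31.0, 16.1 and 22.0 CPM in SHAM (-1.45 ± 0.24, adjusted p = 0.00988). The first 2 passed in all 13 alternatives, and Plagl1 in 9 of them, with adjusted p of 0.0548 without CLL replicate 1 and 0.0816 without CLL replicate 3. The other 7 genes had adjusted p between 0.147 and 0.525.

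These macrophage levels were low beside those of fibroblasts in the same library. Igf2 in macrophages was 9.44, 24.5 and 18.3% of its fibroblast level in CLL and 9.99, 3.98 and 4.56% in SHAM. Dlk1 was 2.05, 1.39 and 3.14% in CLL and 6.91, 2.39 and 1.66% in SHAM, and the sum of the 14 fibroblast markers 3.97, 6.61 and 5.46% and 10.1, 3.23 and 3.74%. Summed fibroblast markers in macrophages were 2181 to 3331 CPM in CLL and 1807 to 6176 CPM in SHAM, 1 of 14 being lower in CLL by the test. The part of fibroblast RNA in the macrophage differences was not tested.

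In endothelial-like cells, the class the Cre driver targets, none of the 9 genes tested passed, with 0.492% of 9352 genes passing. Igf2 was at 39.9 to 80.1 CPM in CLL and at 64.0 to 90.2 CPM in SHAM (-0.58 ± 0.29, edgeR adjusted p = 0.651, unadjusted 0.063), with overlap. CLL libraries held only 40, 205 and 58 endothelial-like cells, which limits the precision there. Relative to fibroblasts of the same library, endothelial Igf2 stood at 148, 172 and 120% in CLL and at 21.2, 23.2 and 16.1% in SHAM. The CLL values rest on 15, 18 and 13 endothelial UMIs of Igf2, and the fibroblast level they are divided by is one the genes were chosen on. With replicate number as a block, 102 of the 9352 genes passed in place of 46, and still none of the 9.

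Dendritic-like cells gave no call among the 8 genes tested, with 0.714% of 7138 genes passing, and Igf2 had the lowest p (edgeR adjusted p = 0.215, unadjusted 0.011). The values depended on SHAM replicate 2, whose dendritic sums held 1616 CPM of fibroblast markers against 10070 and 15491 CPM in the other SHAM libraries and 2821 to 5705 CPM in CLL. Without that library all 10 genes passed, in a fit where 918 of 8683 genes did, against 51 of 7138 with it. Meg3 in dendritic cells showed the split: 401, 28.0 and 346 CPM in SHAM and 71.1, 140.7 and 70.1 CPM in CLL.

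A list of 44 other imprinted genes was read in the same fits. In fibroblast/tenocyte-like cells 37 were tested, of which 13 fell, 3 rose and 21 did not pass, and their median difference was -0.24 against -0.03 over all genes. Of all genes, 13.7% fell and 12.6% rose. Zim1, a zinc-finger gene next to Peg3, had 8.34, 6.87 and 5.94 CPM in CLL and 56.2, 71.8 and 58.3 CPM in SHAM, a difference of -3.14 ± 0.16 (edgeR adjusted p = 4.76e-07). Usp29, which starts in the window printed above for Peg3, fell by 2.38 on the log2 scale (adjusted p = 0.00608). Peg10, a retrotransposon-derived gene, had 21.1, 22.1 and 17.9 CPM in CLL and 62.0, 82.7 and 94.2 CPM in SHAM (-1.96 ± 0.16, adjusted p = 1.39e-05).

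Next to Peg10, Ppp1r9a (-1.93, edgeR adjusted p = 1.39e-05), Asb4 (-1.23, adjusted p = 0.000741) and Sgce, a sarcoglycan (-0.48, adjusted p = 0.0128), also fell. In the Dlk1 domain the retrotransposon-like Rtl1 (-1.96, adjusted p = 0.0012) and Begain (-1.06, adjusted p = 0.00113) fell, while Dio3, the deiodinase that inactivates thyroid hormone, rose from 3.19 to 4.08 CPM in SHAM to 24.3, 16.0 and 37.0 CPM in CLL (2.81 ± 0.36, adjusted p = 0.00219). Genes of 1 domain thus moved in opposite directions. Igf2r, the receptor that clears Igf2, fell by 0.62 (edgeR adjusted p = 0.0019). Airn, the noncoding RNA that overlaps it on the other strand, fell as well (-0.77, edgeR adjusted p = 0.000766). How far counting kept the reads of this pair apart by strand was not checked. The proteoglycan Dcn (-1.04, adjusted p = 0.00044), Mkrn3 (-1.51, adjusted p = 0.026) and Gnas (-0.49, adjusted p = 0.0326) fell too, and Tssc4 (0.53, adjusted p = 0.00875) and H13 (0.50, adjusted p = 0.00688) rose. Sgce, Mkrn3 and Gnas passed in 11, 9 and 7 of 15 alternatives. They were lost without single libraries, with edgeR adjusted p up to 0.0535 for Sgce (without SHAM replicate 2, and also without CLL replicate 1 or 2), 0.15 for Mkrn3 (without SHAM replicate 2, and also without any CLL replicate) and 0.132 for Gnas (without CLL replicate 2, and also without any library but SHAM replicate 1).

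In myogenic-like cells 28 of the list were tested, 6 fell, none rose and 22 did not pass, with 3.02% of all genes falling and 2.56% rising. Zim1 fell from 43.4, 41.1 and 32.7 CPM in SHAM to 13.9, 13.1 and 10.5 CPM in CLL (-1.66 ± 0.18, edgeR adjusted p = 0.0021). Calcr, the calcitonin receptor of quiescent muscle stem cells, read 1.50, 0 and 0.577 CPM in CLL and 10.9, 11.4 and 8.30 CPM in SHAM (-3.61 ± 0.49, adjusted p = 0.0053). Ppp1r9a (-0.94, adjusted p = 0.0181), Mirg, a noncoding RNA downstream of Rian (-1.91, adjusted p = 0.0289), Usp29 (-1.11, adjusted p = 0.0301) and Peg10 (-0.73, adjusted p = 0.0346) were the others. Leaving out CLL replicate 1 gave 2 that fell, CLL replicate 3 gave 1 and SHAM replicate 1 gave 3, and the fit with replicate number as a block gave 2. Zim1 passed without each of the 6 libraries in turn, and Calcr in all but the fit without CLL replicate 3 (adjusted p = 0.0581).

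**Figure D5:**
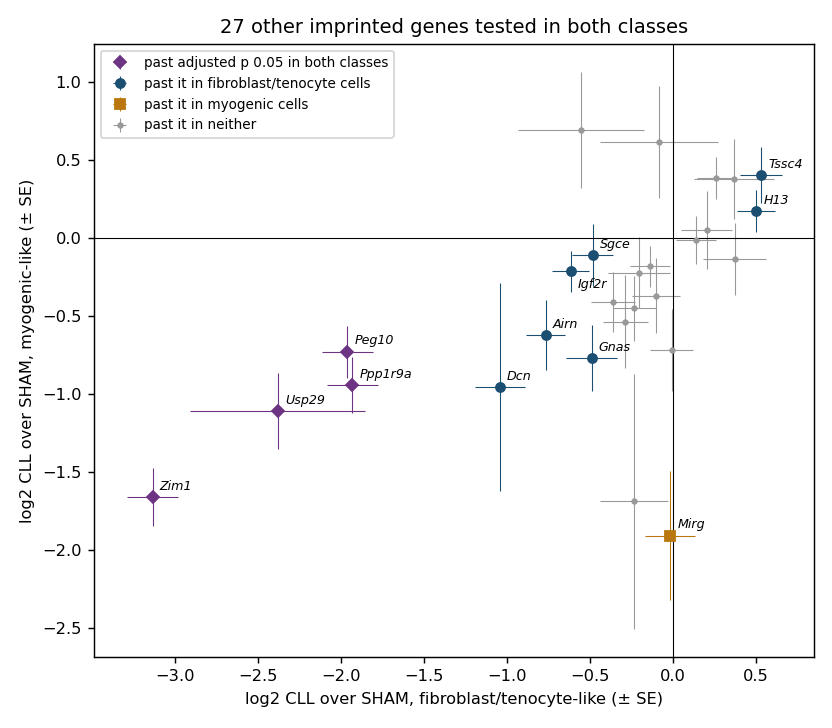
Log2 difference of CLL over SHAM (± SE) of 27 other imprinted genes tested in both classes, with fibroblast/tenocyte-like cells on the x axis and myogenic-like cells on the y axis; both axes use the same 6 mice. Zim1 lies farthest to the lower left, at -3.14 and -1.66, and Dio3 is absent because it was not tested in myogenic cells.

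Single clusters were read for the same list. Cluster 4 of the fibroblasts had 1 gene higher and 6 lower of 28 tested, cluster 1 had none higher and 2 lower of 35, and myogenic cluster 5 had 1 higher and 9 lower of 28. Among those 9 was Dcn, which is also on the fibroblast marker list summed above for that cluster. The part of fibroblast RNA in that call was not tested. Of all genes tested in them 1.85%, 1.42% and 8.67% fell and 1.96%, 1.64% and 7.84% rose. Macrophages had 2 lower of 21 tested, Peg10 and Zim1, and endothelial and dendritic cells had no call among 21 and 12 tested.

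Genes linked to the functions of the imprinted set were also listed, and their counts stand beside 13.7% of all genes lower and 12.6% higher in fibroblasts, and 3.02% and 2.56% in myogenic cells. Of 18 IGF pathway genes tested in fibroblasts, 4 rose and 5 fell: the mRNA-binding protein Igf2bp3 (-1.60, edgeR adjusted p = 0.0006), Igf2r, the adaptor Irs1 (-0.68, adjusted p = 0.00318) and Igfbp6, a binding protein with preference for Igf2 (-1.01, adjusted p = 0.0037), had the lowest p. In myogenic cells 1 of 17 rose, the binding protein Igfbp2 (1.80, adjusted p = 0.00495), and 1 fell, the adaptor Irs2 (-0.72, adjusted p = 0.0226), which was lost in the fits without CLL replicate 1, 2 or 3 or SHAM replicate 1 or 3 (adjusted p up to 0.102). Igf2 was lower in both classes. Its pathway genes went both ways in fibroblasts, as all genes did, and too few passed in myogenic cells to read a direction.

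Of 7 other genes listed as CDK inhibitors 2 rose in fibroblasts, where 12.6% of all genes did: Cdkn3, a phosphatase outside the Cdkn1c family (1.12, edgeR adjusted p = 0.00349) and the inhibitor Cdkn2b (1.46, adjusted p = 0.0114). None of the 7 fell. In myogenic cells none of 7 passed (lowest adjusted p 0.12 for Cdkn2d and 0.203 for Cdkn1b). Of 10 Notch genes, which relate to Dlk1, 4 fell in fibroblasts and 1 rose, led by the receptors Notch2 (-0.92, adjusted p = 0.000323) and Notch3 (-1.09, adjusted p = 0.00115). The feedback gene Nrarp (-1.59, adjusted p = 0.0218) and the target Heyl (-0.50, adjusted p = 0.0307) followed, and these were lost without any CLL replicate or SHAM replicate 1 for Nrarp (adjusted p up to 0.233) and without CLL replicate 1 or 2 or SHAM replicate 1 or 2 for Heyl (up to 0.0976). In myogenic cells 3 of 10 fell, Notch3 (-0.95, adjusted p = 0.0132), Notch2 (-0.76, adjusted p = 0.0325) and Nrarp (-1.32, adjusted p = 0.0449). None of these 3 calls held in every leave-one-out fit: Notch3 was lost without CLL replicate 1 or 3 (up to 0.0646), Notch2 without CLL replicate 1 or 3 or SHAM replicate 1 or 3 (up to 0.166), and Nrarp without any 1 of the 6 libraries (up to 0.209).

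Among myogenic stage genes 4 of 20 fell in myogenic cells and 1 rose. The stem cell genes Chodl (-3.37, edgeR adjusted p = 0.00302), Pax7 (-0.84, adjusted p = 0.0156) and Calcr fell and Acta1, the actin of mature fibres, rose (1.19, adjusted p = 0.0103). Pax7 was lost without CLL replicate 1 or 3 (adjusted p up to 0.0948) and Acta1 without CLL replicate 3 (0.0704). In the fibroblast sums 4 of 16 of these genes fell, most of which are muscle stem cell genes. They were Spry1 (-1.05, edgeR adjusted p = 0.000248), Chodl (-3.47, adjusted p = 0.000258), Cdh15 (-1.99, adjusted p = 0.00491) and Pax7 (-3.06, adjusted p = 0.0102). In SHAM fibroblasts they stood, in that order, at 71.6 to 91.3, 26.0 to 56.4, 2.45 to 6.72 and 1.55 to 5.45 CPM. SHAM myogenic cells had 56.4 to 71.1, 148 to 186, 158 to 291 and 125 to 170 CPM. The source of these transcripts in the fibroblast sums was not tested. Proliferation genes, with 14 of 30 higher in fibroblasts, had 1 of 30 higher in myogenic cells, the cyclin Ccnb2 (0.70, adjusted p = 0.0455), lost without every single library but CLL replicate 2 (up to 0.188).

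Of 14 genes of developing stroma tested in fibroblasts 5 fell and 1 rose. Beside Igf2bp3 these included the chromatin protein Hmga1 (-1.77, edgeR adjusted p = 0.0103), the transcription factor Sox11 (-0.78, adjusted p = 0.0126) and, upward, Twist1 (0.48, adjusted p = 0.0121). Hmga1 was lost without CLL replicate 3 or SHAM replicate 3 (adjusted p up to 0.0573) and Sox11 without CLL replicate 1 or 3 or SHAM replicate 1 (up to 0.0601). None of 12 passed in myogenic cells (lowest adjusted p 0.0617 for Igf2bp3 and 0.139 for Igf2bp2). Nuclear-retained long RNAs, read because Meg3 and Rian stay in the nucleus, had no call in fibroblasts (0 of 7, lowest adjusted p 0.0886 for Snhg11 and 0.137 for Kcnq1ot1) or in myogenic cells (0 of 6, lowest adjusted p 0.289 for Neat1 and 0.327 for Kcnq1ot1). The list is short, so nothing about the lower Meg3 and Rian is read from this absence of calls.

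Summed over all kept cells, 4 of the 10 genes were lower in CLL without overlap, where 26.3% of all genes were. These were Igf2 (-2.34 ± 0.27), Dlk1 (-2.65), Plagl1 (-0.73) and Peg3 (-0.68), and Ndn was higher without overlap (0.65 ± 0.14), as were 26.1% of all genes. The sums over all cells mix classes whose shares differ between the groups, so they are given only beside the values by class.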

How the data were processed

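Raw UMI counts per gene and barcode were deposited by the authors for each library, made with Cell Ranger 6.1.2 on mm10 per the submitters' processing notes, and how barcodes were selected before deposit is not stated in the labels. Per the labels' protocols, cells came from enzymatically digested quadriceps and the kit reads 3′ ends. Barcodes had to show 300 genes or more and no more than 15% of UMIs from mitochondria, and the cells with the highest Scrublet scores, 0.8% per 1000 barcodes, were removed as likely doublets (7032 cells, 1.65% to 20.02% per library). Clustering (scanpy 1.11.5, 2000 variable genes without the imprinted genes, 30 components, 15 neighbours, Leiden resolution 1.0) was followed by naming from at least 3 detected markers, with the naming details set after the clusters were seen. All 362 barcodes found in more than 1 library stayed in.

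Counts were summed per class and library and fitted over all genes with edgeR 4.0.16 (TMM, filterByExpr, quasi-likelihood, R 4.3.3), adjusted over all genes by Benjamini-Hochberg at 0.05. A class was tested only with 20 cells in every library, and the same held for single clusters. Error is between 3 mice per group, and intervals of depth cover counting only. On simulated counts for the real genes the fit recovered 77% and 88% of changes of log2 1 and 2 in fibroblasts (14324 genes), and 51% and 97% in myogenic cells (11839 genes). DESeq2 1.42.0, no count filter, the replicate block, each library left out, other cell filters and, added after the data were seen, unnamed clusters or clusters 15 and 26 were alternatives.

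The genes and all lists were chosen with earlier results of these data known. Named were all 10 genes, every other imprinted gene past the threshold in fibroblast or myogenic cells, up to 4 genes of each further list with the smallest adjusted p (or 2 where none passed), and the 5 genes most correlated with Igf2 and Meg3 at a mean of at least 20 CPM. Replicate numbers are of separate mice. Same-numbered libraries deviated with correlations of -0.05, -0.16 and -0.02 in fibroblasts and -0.19, -0.28 and -0.19 in myogenic cells, none of them positive. In endothelial cells these correlations were 0.14, 0.32 and 0.18. There the block changed no call among the 9 imprinted genes tested, while calls over all genes went from 46 to 102. With 3 libraries per group, such correlations cannot decide whether the numbers pair the libraries. Of the symbols in the tables, 78 features share one with another feature, and 32158 of 32286 matched the names table. Gene positions are from the GRCm38 annotation.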

Additional observations from a re-analysis of the deposited data

How the results depend on the processing

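All 10 genes kept a lower estimate in fibroblasts under all 15 alternatives, and in myogenic cells all but H19 (6 of 14) and Cdkn1c (11 of 14) kept their sign. The 9 fibroblast genes without overlap ranged from 9 to 10 with single libraries left out. The 5 myogenic ones ranged from 5 to 7, and the 5 were 7 without CLL replicate 2 and SHAM replicate 3 together. Other imprinted genes lower in fibroblasts ranged from 11 to 15 and higher from 3 to 4. In myogenic cells the 6 that fell ranged from 1 to 5 with single libraries left out and were 2 with the replicate block, and 1 rose with doublets kept, where none did otherwise. Of the genes tested in macrophages, 3 passed in the reported fit, 5 with DESeq2, 7 without a filter on low counts and 2 to 4 with single libraries left out. In endothelial cells 1 passed without the filter, with 0 otherwise and with each library left out. In dendritic cells 3 passed without the filter, 1 with the replicate block, and 0 to 10 with single libraries left out (10 without SHAM replicate 2). The replicate block paired by number changed no other count by over 1.5 times. The cause of these changes was not tested. Member differences moved by more than the spread in 7 of 290 refits: Mest to -0.28 in fibroblasts, Meg3 to -2.69 and Rian to -2.60 in myogenic cells without CLL replicate 2 and SHAM replicate 3, H19 to -0.62 without CLL replicate 2, Plagl1 to -0.97 and Ndn to 0.51 with doublets kept, and Peg3 to -1.42 with unnamed clusters added. Thinning to 500 UMIs moved the share result of 5 of the 10 genes in fibroblasts and of 4 in myogenic cells. It changed no sign of a share's difference in either class. Scaling with DESeq2 shifted the median of all genes by 0.011 to 0.040 log2. With 3 mice a group, 2 shallow libraries, few CLL endothelial cells and rebuilt cluster names, small differences such as those of Ndn, Mest and H19 are near the limit.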
